A study of Bos taurus with 24 samples.

Results

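The 6 mammary gland libraries of the cows fed alfalfa hay were compared by milk yield. They are 6 of the 24 libraries of a study of dairy cows (Bos taurus) that were fed an alfalfa hay based diet or a corn stover based diet for 12 weeks and then slaughtered. The high yield group held the 3 cows with a labelled yield above 28 kg of milk per day (replicates 2, 3 and 5), and the low yield group the 3 cows below 25 kg (replicates 1, 4 and 6). Members were thus chosen by a label and not by any expression value. All 6 cows ate the same diet, were lactating and were sampled once. The corn stover mammary libraries (n = 6) and the livers of the same hay cows (n = 6) serve only for comparison. Each library is bulk tissue from 1 cow, and the labels give neither breed nor age nor the part of the udder sampled.

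Milk is made by the secretory epithelium of the mammary alveoli. These cells synthesise the caseins and whey proteins, join glucose and galactose into lactose, and build triglycerides that leave as milk fat globules. Lactose draws water into milk osmotically and so sets much of its volume. Over the course of lactation yield declines as secretory cells are lost and as each remaining cell secretes less, and in bulk tissue fewer cells of a type and less RNA per cell cannot be told apart. The deposited counts carry Ensembl identifiers only, and 0 of 24616 matched the gene table used here. Genes are therefore given by identifier or by their rank in abundance, without names or functions, and the 37 lists of milk, metabolic, hormone and cell type genes could not be applied.

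The groups differed in yield by design and overlapped in diet intake. Yield was 29.0, 28.3 and 28.7 kg per day in the high group and 24.7, 23.3 and 23.7 kg per day in the low group. Milk per kg of dry matter eaten, which contains the yield, was 1.57 ± 0.0571 kg against 1.31 ± 0.0320 kg (SD, n = 3 each). Dry matter intake was 18.3 ± 0.553 kg per day in the high group and 18.3 ± 0.261 kg per day in the low group (exact permutation test over the cows, two-sided, p = 1, adjusted over 2 measures 1). The ranges of intake overlapped, at 17.7 to 18.7 and 18.0 to 18.5 kg per day.

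Stage of lactation and parity were not matched between the groups. High yield cows were at 246, 245 and 240 days in milk, and low yield cows at 231, 242 and 232 days, a difference of 8.67 days (exact permutation p = 0.2, adjusted 0.4). With 3 cows against 3, 0.1 is the smallest two-sided p that the 20 possible assignments allow. Low yield cow 4 lay within the range of the high yield cows, while cows 1 and 6 lay below it. High yield cow 2 was the only one of parity 2. Yield, days in milk and parity therefore cannot be fully told apart in these 6 cows.

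**Figure D1:**
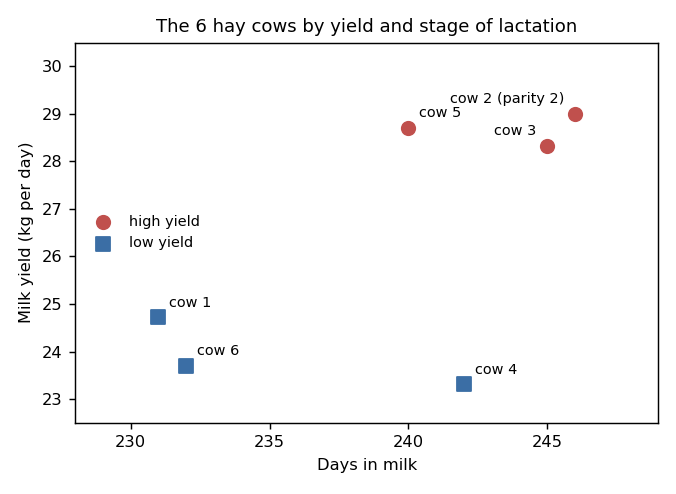
Milk yield in kg per day (vertical axis) against days in milk (horizontal axis) for the 6 hay cows, 1 point per cow, circles for high and squares for low yield. The high yield cows lie at 28.3 to 29.0 kg per day and 240 to 246 days, and 2 of the 3 low yield cows lie at 231 and 232 days.

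No difference in library measures between the groups exceeded the spread of the libraries. Totals were 22579051, 22591138 and 24714024 counts in the high group and 24713281, 37954234 and 24467214 in the low group. The 10 most abundant genes of each library took 74.5% ± 3.82 of its counts in the high and 75.9% ± 4.43 in the low group (SD, n = 3; exact permutation p = 0.7, adjusted over 6 measures 0.96). The tissue label was checked with genes set in the corn stover cows: 31 mammary-type genes stood at 94.5% to 107% of their corn stover mammary level in the hay mammary libraries, and 185 liver-type genes at 79.7 to 428 ppm of their liver level. The highest liver-type value was that of low yield replicate 4. The adjusted p of the other measures was 0.96 or 1.

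The 2 most alike libraries were of opposite yield groups. Low yield replicate 1 and high yield replicate 2 differed more than 2-fold in only 8 of the 4517 genes at 10 CPM or more (CPM is the read count scaled to a common library size). In the other 65 combinations of mammary libraries, on either diet, 118 to 1009 genes did so. The median gene differed between these 2 libraries by 0.12 on the log2 scale, against 0.21 to 0.55 in the other combinations. Their counts still differed more than counting noise allows, with a median squared difference 3.31 times that of counting alone, where the others ran from 7.83 to 30.4 times. They were kept as 2 libraries because the labels give them to 2 cows. The excess over counting noise does not show that the tissue came from 2 animals. In liver the libraries of the same 2 cows differed more than 2-fold in 1163 of 6997 genes. The liver of cow 1 stood apart from all 5 other hay livers, by 960 to 1802 genes, where those 5 differed among themselves by 110 to 945.

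The same likeness showed in the genes that vary most among the hay cows. Over the 300 genes of highest spread, the deviations of low yield replicate 1 and high yield replicate 2 correlated at r = 0.90 across genes. The other 14 combinations of hay libraries ran from -0.33 to 0.36. These genes were chosen for their spread in the same 6 libraries, so the values are a description. The first principal component, with 33.9% of the variance, placed these 2 libraries at -41.4 and -50.7 and the other 4 at 9.35 to 35.5. Whether both libraries came from the cow of their label was not tested, and the results that rest on them are also given without them.

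The yield groups did not form 2 clusters. Libraries of the same yield group differed more than 2-fold in 362 to 460 genes (6 combinations). Libraries of opposite groups did so in 150 to 541 genes once the 2 alike libraries were set aside (8 combinations). The second closest combination also crossed the groups, high yield replicate 3 with low yield replicate 6, at 150 genes. Low yield replicate 4 was the most distant member, at 382 to 541 genes from the others.

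**Figure D2:**
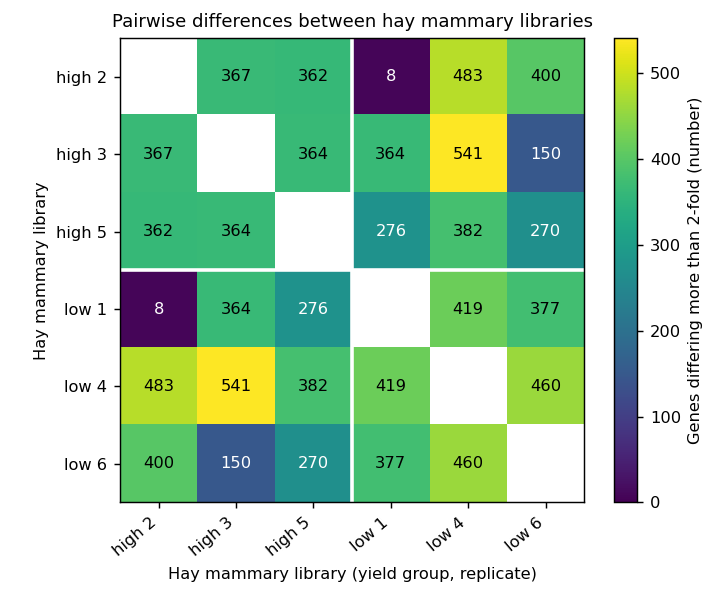
Number of genes, of 4517, that differed more than 2-fold between each 2 of the 6 hay mammary libraries, which are listed by yield group and replicate on both axes, with white lines between the groups. The darkest square, high 2 with low 1, holds 8 genes, and all other squares hold 150 to 541.

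The main comparison asked which mammary genes differed with yield on 1 diet. No gene of 12032 tested passed an adjusted p of 0.05 in either direction, so 0% were called (edgeR quasi-likelihood test with Benjamini-Hochberg adjustment, smallest adjusted p = 0.999988). An unadjusted p under 0.05 was reached by 127 genes, 1.06% of those tested, with 48 higher and 79 lower fitted values in high yield cows. With no difference in any gene, about 602 genes, a share of 0.05, would be under that p. Limma voom also called 0 genes, with 111 genes under an unadjusted p of 0.05. DESeq2 called 1 gene, ENSBTAG00000002931, which is 0.00831% of the genes.

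Fitted differences were small beside their errors. The median size was 0.20 on the log2 scale and the median standard error 0.35. In 295 genes (2.45%) the fitted difference was above 2-fold, 128 higher and 167 lower in high yield cows. All 3 high yield libraries lay above all 3 low yield libraries in 240 genes (1.99%) and below them in 266 genes (2.21%). Were the yield labels assigned at random, a share of about 0.1 of genes would separate in this way on average.

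The 2 alike libraries bore on these counts. Without both, 1 gene of 12050 passed the threshold, ENSBTAG00000016820, and 272 genes had an unadjusted p under 0.05. Of the 127 genes at that level with all 6 libraries, 85 were among these 272, all in the same direction. The 85 genes are 66.9% of the one list and 31.2% of the other. Without low yield replicate 1 alone the unadjusted count was 382, and without high yield replicate 2 alone it was 283. It was 76 without low yield replicate 4 and 191 without high yield replicate 5. No gene passed when any single library was left out. With days in milk as a covariate the unadjusted count was 686, and 0 genes passed. A share of 0.05 of the genes tested in that fit is 602. Every edgeR fit with libraries left out stayed below its own share of 0.05.

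**Figure D3:**
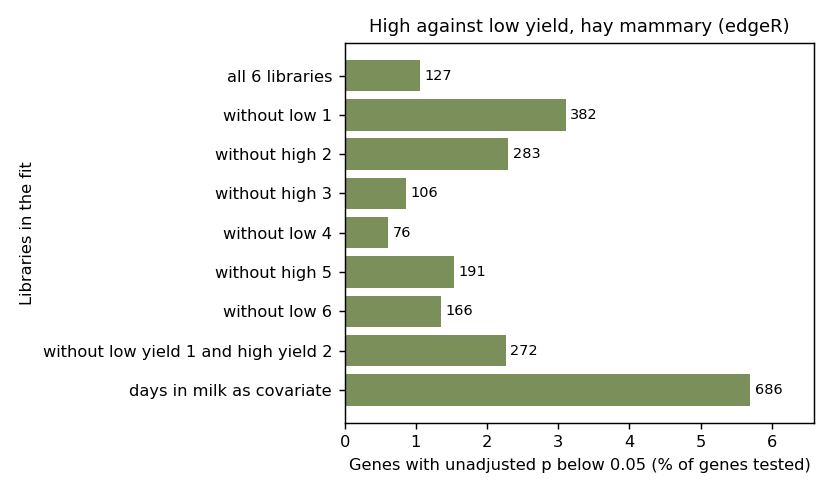
Genes with an unadjusted p below 0.05 in the edgeR test of high against low yield, as a percentage of genes tested (horizontal axis), for the fit of all 6 libraries and for fits without 1 or 2 libraries or with days in milk as a covariate; the number beside each bar is the count. The share is 1.06% with all 6 libraries, 3.11% without low yield replicate 1 and 5.7% with days in milk. With no difference in any gene a share of about 0.05 would be reached.

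ENSBTAG00000017138 had the smallest p of the genes with higher values in high yield cows. It stood at 0.781, 2.03 and 2.26 CPM in high yield replicates 2, 3 and 5 and at 0.146, 0.2865 and 0.320 CPM in low yield replicates 1, 4 and 6. The groups did not overlap, and the lowest high yield value belonged to replicate 2. These levels rest on 20 to 50 counts in the high and 4 to 8 counts in the low yield libraries. The log2 difference was 2.73 ± 0.63 (SE; edgeR adjusted p = 0.999988), and 2.815 without the 2 alike libraries. On corn stover the gene ranged from 0.574 to 2.60 CPM with a median of 1.44 CPM, a median nearer to the high yield hay cows although those cows gave less milk than they did.

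ENSBTAG00000002931 was high in 2 of the 3 high yield cows only. It stood at 4.96, 0.325 and 9.76 CPM in high yield replicates 2, 3 and 5 and at 0.256, 0.215 and 0.440 CPM in the low yield libraries. High yield replicate 3 lay within the range of the low yield cows, so the groups overlapped. The log2 difference was 4.03 ± 0.99 (SE; edgeR adjusted p = 0.999988), while DESeq2 gave an adjusted p of 0.0105. Over the 17 fits on the group scale the adjusted p ranged from 0.0105 (DESeq2) to 0.999988, and DESeq2 without the 2 alike libraries gave 0.0906. Low yield replicate 1 and high yield replicate 2, alike in nearly all other genes, differed here with 7 against 127 counts.

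ENSBTAG00000018223 had the smallest p of the genes with lower values in high yield cows. It stood at 1.99, 2.80 and 2.17 CPM in the high and at 4.36, 4.87 and 7.72 CPM in the low yield libraries. The groups did not overlap. The log2 difference was -1.28 ± 0.345 (SE; edgeR adjusted p = 0.999988), and -1.32 without the 2 alike libraries. The gene was among those enriched in mammary gland over liver in the corn stover cows, and their mammary libraries ranged from 3.82 to 40.5 CPM with a median of 9.63 CPM. The 3 low yield hay cows lay within that range, and the 3 high yield hay cows lay below it.

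ENSBTAG00000010433, also mammary-enriched, stood at 0.312, 1.06 and 0.189 CPM in the high yield libraries. The low yield libraries were at 1.098, 7.27 and 2.88 CPM. The groups did not overlap, but high yield replicate 3 and low yield replicate 1 were nearly level. The log2 difference was -2.84 ± 0.81 (SE; edgeR adjusted p = 0.999988), and without low yield replicate 4, the highest library, it was -1.92. Corn stover cows ranged from 1.95 to 42.8 CPM. None of these 4 genes passed edgeR's threshold under any alternative tried.

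ENSBTAG00000016820, named after its values were seen, shows how a gene can turn on the 2 alike libraries. High yield replicates 3 and 5 were at 43.2 and 25.5 CPM, and low yield replicates 4 and 6 at 0.0716 and 0.120 CPM. Low yield replicate 1 and high yield replicate 2 lay between them at 11.2 and 4.41 CPM, in the opposite order to their groups. With all 6 libraries the log2 difference was 2.68 ± 1.39 (SE; edgeR adjusted p = 0.999988). Without these 2 libraries it was 8.44 ± 0.58 (SE; edgeR adjusted p = 0.00113), on 2 libraries a side and with 2 and 3 counts in the low yield libraries. Corn stover mammary libraries ranged from 0.406 to 8.69 CPM.

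ENSBTAG00000043564 had the widest range in hay mammary gland and was chosen for it. High yield replicate 5 was at 780 CPM and low yield replicate 6 at 730 CPM, while the other 4 libraries were at 0.2435 to 0.680 CPM. The gene was thus on in 1 cow of each yield group, and its log2 difference by yield was 0.10 ± 2.53 (SE; edgeR adjusted p = 0.999988). The livers of cows 5 and 6 were likewise the high hay livers, at 318 and 308 CPM against 0.779 to 2.17 CPM in the others.

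**Figure D4:**
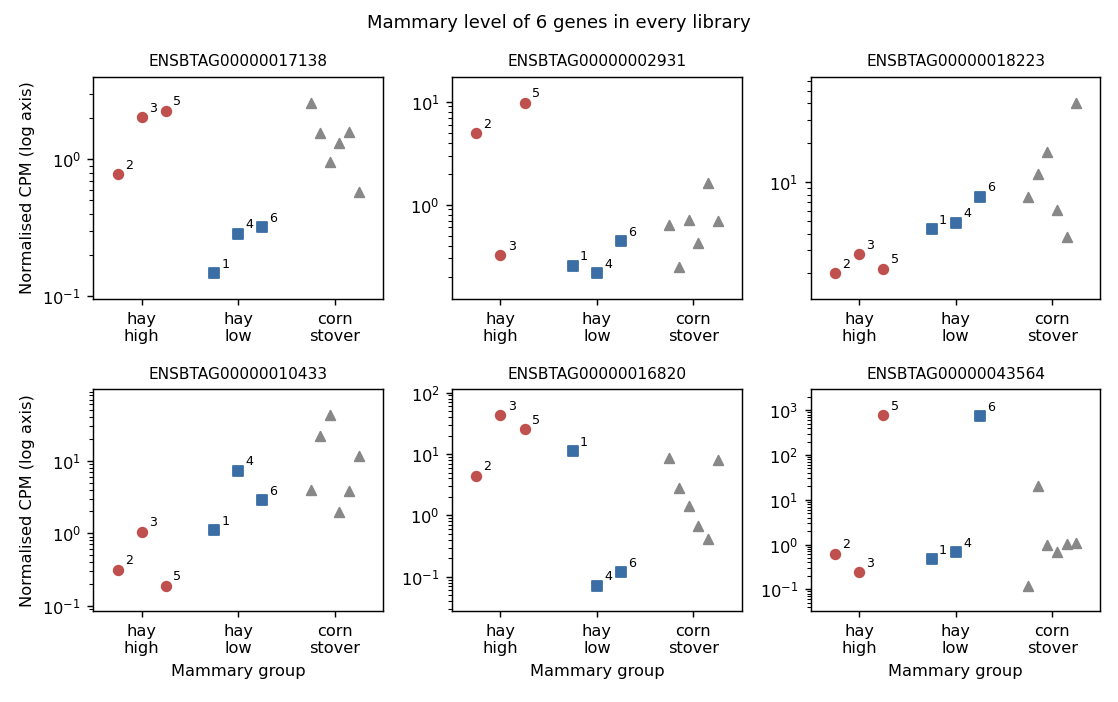
Normalised CPM (log axis) of 6 genes in each mammary library, with hay high yield as circles, hay low yield as squares (replicate numbers beside the points) and corn stover as triangles. The groups are apart in ENSBTAG00000017138, ENSBTAG00000018223 and ENSBTAG00000010433, while low yield replicate 1 lies beside the high yield libraries in ENSBTAG00000016820 and 1 cow of each group is high in ENSBTAG00000043564.

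Among the most abundant mammary genes, which carry most of the reads, none passed the test by yield. The gene ranked first in the corn stover cows took 330320, 322570 and 341960 CPM of the library total in high yield cows and 323300, 415940 and 317270 CPM in low yield cows. Low yield replicate 4 was the highest. The gene ranked second was at 175900 ± 26731 CPM in high and 161500 ± 17490 CPM in low yield cows (SD, n = 3). Of the 10 genes of highest rank, 2 had higher and 8 lower fitted values in high yield cows, with a median log2 difference of -0.17, and 0 passed (edgeR adjusted p = 0.999988 for each). On library totals the gene of rank 7 alone did not overlap between the groups, at 13657 to 14931 CPM in high and 15150 to 16919 CPM in low yield cows. With the TMM scaling of the fits it overlapped, at 12255 to 17082 and 13347 to 22407 CPM, and 0 of the 10 genes were without overlap.

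Genes enriched in mammary gland or in liver were set apart in the corn stover cows, whose libraries the yield comparison does not use. Of 724 mammary-enriched genes tested, 403 had higher and 321 lower fitted values in high yield cows, with a median log2 difference of 0.06, and 0 passed the threshold (edgeR). By library their median deviation was 0.16, 0.01 and -0.01 in high yield replicates 2, 3 and 5 and 0.11, -0.07 and -0.04 in low yield replicates 1, 4 and 6. The 2 alike libraries were the highest of each group, and the groups overlapped. An unadjusted p under 0.05 was reached by 9 higher and 12 lower genes, 2.90% of the class, beside 1.06% of all genes.

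Of 453 liver-enriched genes tested in mammary gland, 200 had higher and 253 lower fitted values in high yield cows, with a median of -0.09 and 0 past the threshold. In 3 higher and 12 lower genes of this class, 3.31%, the unadjusted p was under 0.05 (edgeR), a share above that of the mammary-enriched genes. Their library medians were -0.05, 0.04 and 0.03 in high yield and -0.09, 0.14 and 0.15 in low yield replicates in the same order. Liver-type reads, at 162, 178 and 160 ppm in high yield and 79.7, 428 and 130 ppm in low yield libraries, did not follow these medians in low yield replicate 6, and their part in the difference was not tested. The 7323 shared genes had a median of 0.01, as had all 12032 genes. Among the shared genes 0.587% had an unadjusted p under 0.05 (edgeR). Without low yield replicate 1 the mammary-enriched median was 0.14, and without high yield replicate 2 it turned to -0.02. The liver-enriched median was lower in high yield cows whichever library was left out, from -0.15 to -0.03, and -0.18 without the 2 alike libraries.

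**Figure D5:**
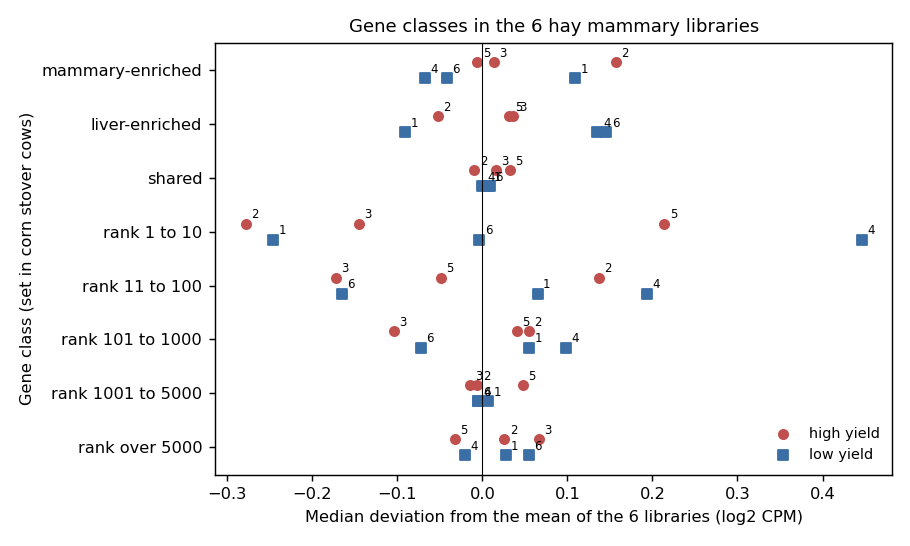
Median deviation of each gene class from the mean of the 6 hay mammary libraries (log2 CPM, horizontal axis) by class (vertical axis), 1 point per library, circles for high and squares for low yield, with replicate numbers. Classes are tissue-enriched genes and ranks of abundance in the corn stover cows, and replicates 1 and 2, of opposite yield groups, lie side by side in the mammary-enriched, liver-enriched and rank 1 to 10 classes.

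In the livers of the same 6 cows edgeR also called 0 genes, while DESeq2 called 4, with 2 higher and 2 lower in high yield cows. Of 13035 genes 0 passed (edgeR, 0%, smallest adjusted p = 0.361). An unadjusted p under 0.05 was reached by 330 (2.53%), of which 239 had higher values in high yield cows. Without the liver of cow 1, which stood apart, 0 passed and the unadjusted count was 338. Groups did not overlap in 8.07% of liver genes, beside 4.21% of mammary genes, both below the share of about 0.1 from random assignment. ENSBTAG00000018941 had the smallest p by edgeR, at 3.32 to 7.91 CPM in high and 0.210 to 0.516 CPM in low yield livers. These differ by 4.11 ± 0.53 on the log2 scale (SE, adjusted p = 0.361 by edgeR and 1.04e-09 by DESeq2). By DESeq2 the smallest p was that of ENSBTAG00000001582, lower in high yield livers at -4.86 ± 0.613 (SE, DESeq2 adjusted p = 2.92e-11). In mammary gland ENSBTAG00000018941 had at most 15 counts in a hay library and was too low to be tested.

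The difference of the yield effect between the tissues was tested over the 12 hay libraries. Of 13748 genes 0 passed (edgeR, 0%, smallest adjusted p = 0.999945), while DESeq2 called 4 (0.0291%). An unadjusted p under 0.05 was reached by 295 (2.15%), and by 304 without cows 1 and 2. No gene is therefore called particular to mammary gland by edgeR. ENSBTAG00000024947 had the smallest p. It stood at 0.508, 0.771 and 2.36 CPM in high and 0.256, 0.107 and 0.280 CPM in low yield mammary libraries, and in liver at 0.0404 to 0.102 CPM in high and 0.172 to 0.665 CPM in low yield cows. Its log2 yield difference in mammary gland minus that in liver was 4.89 ± 1.12 (SE; edgeR adjusted p = 0.999945). The gene had 50 counts or fewer in each of these libraries, and only 1 to 3 in the high yield livers.

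The corn stover cows share no library with the hay comparison. Their yields ran from 17.1 to 23.3 kg per day, but the cow of lowest yield (replicate 6) was at 228 days in milk against 245 to 254 for the others, and the cow of highest yield was the only one of parity 2. Yield, days in milk and parity cannot be told apart there either. The library of replicate 6 also stood apart, with 485 to 1009 genes over 2-fold from each other mammary library. Of 10511 mammary genes 0 passed for a slope on yield (edgeR, 0%, smallest adjusted p = 0.211), while DESeq2 called 167 (1.59%). An unadjusted p under 0.05 was reached by 1565 (14.9%). Without replicate 6 edgeR called 6 genes, and the unadjusted count was 1334. ENSBTAG00000047088 had the smallest p, with a log2 slope of 0.55 ± 0.08 per kg (SE; edgeR). On hay its fitted value was lower in high yield cows, at -0.72 ± 0.71 on the log2 scale (SE; adjusted p = 0.999988 by edgeR).

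Direction was then looked up for the 127 hay genes. Of the 98 that could be tested on corn stover, 72 (73.5%) had a slope of the same direction as the hay difference, beside 64.4% of all 10492 genes tested in both. Without corn stover replicate 6 the share was 51 of 98 (52.0%), beside 58.7% of 10659 genes. The higher share was thus not seen without that library, and leaving it out also narrowed the range of yields. No other corn stover library was left out for this share. Genes are not independent of each other, so these shares are a description. The slope of ENSBTAG00000017138 was 0.31 ± 0.11 per kg and that of ENSBTAG00000018223 -0.36 ± 0.13 per kg, both in the direction seen on hay (SE; edgeR adjusted p = 0.273 and 0.283). That of ENSBTAG00000010433 was 0.04 ± 0.32 per kg, against the direction on hay (edgeR adjusted p = 0.959). Without replicate 6 the slopes were 0.27 ± 0.16, 0.07 ± 0.24 and -0.16 ± 0.76 per kg in the same order (SE; edgeR adjusted p = 0.537, 0.927 and 0.954), so the direction of the second and the third turned. ENSBTAG00000002931 was too low to be tested on corn stover. In the livers of the same cows, 60 of 104 such genes (57.7%) had the direction of the mammary difference, beside 60.5% of all 11370 genes. Without the liver of cow 1 these shares were 58.7% of 109 and 53.5% of 11484 genes.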

How the data were processed

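The files hold raw read counts per Ensembl bovine gene, deposited by the authors, 1 file per library. The submitters' processing notes name HTSeq 0.6.1, TopHat2 2.0.9, SAMtools 1.1 and the build UMD 3.1. Their order, the strand setting, the filters and the annotation release were not given in the sources used here. Per the labels' protocols, RNA came from ground frozen tissue. Counts of the 6 libraries were fitted in R 4.3.3 by edgeR 4.0.16 (quasi-likelihood test), after filterByExpr (minimum count 10, total 15) and TMM scaling, a trimmed mean of ratios; p-values were adjusted by Benjamini-Hochberg at 0.05. Standard errors are the log2 difference over the root of F. Levels are CPM over library total times TMM factor, within a tissue; the 10 genes of highest rank are by mean CPM over library totals, and the plotted rank classes by median TMM-scaled CPM, which gives another set of 10. Counts of 2-fold differences between libraries, and log2 deviations, use CPM plus 0.5. Counting noise was measured on genes with 20 to 2000 counts in 2 libraries together.

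Tissue classes came from edgeR on the 12 corn stover libraries (past the threshold with a log2 difference of 3 or more, or under 1 for shared genes); type genes and ranks of abundance were defined after the data were seen, and type genes had a log2 difference of at least 8 and 100 CPM. By rule, the 2 genes of smallest p per direction are named, and 1 from each other comparison; others were named after their values were seen. Members and lists were chosen with earlier results of these data known. Alternatives were RLE scaling, other filters, DESeq2 1.42.0, limma 3.58.1 voom, covariates, and libraries left out; looking up directions without corn stover replicate 6 or the liver of cow 1 was chosen after the data were seen. The labels give equal cow measurements to a replicate number in both tissues, which was taken to mean 1 cow; whether the tissues came from 1 animal was not tested; a cow's liver and mammary deviations correlated at -0.24 to 0.21. Blank closing lines of the liver files, which name no gene and hold no count, were dropped. The code was tested on simulated data. Depth limits genes of few counts. The p-values of the fits set a difference or slope against the spread between libraries, which were counted as independent. The main interaction fit also took the 2 tissues of a cow as separate libraries.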

Additional observations from a re-analysis of the deposited data

How the results depend on the processing

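The 4 counts of called genes stayed at 0 in 43 of 52 alternatives. In the hay mammary comparison DESeq2 called 1 gene; without low yield 1 and high yield 2, an alternative added after the data were examined, edgeR called 1, limma voom 0 and DESeq2 10. In liver DESeq2 called 4 genes, ENSBTAG00000001582 and ENSBTAG00000003289 lower and ENSBTAG00000018941 and ENSBTAG00000027516 higher in high yield cows. For the tissue interaction it called 4, all lower, led by ENSBTAG00000004903 and ENSBTAG00000038215. The fitted log2 differences of these 2 were -26.1 ± 3.82 and -24.2 ± 3.94 (SE), which are not read as effect sizes. For the corn stover slope DESeq2 called 167, and edgeR 0 to 6 with 1 library left out (6 without replicate 6, 1 each without replicates 1 and 3). The cause was not tested.

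Mammary genes at an unadjusted p below 0.05 numbered 297 without a filter, 686 with days in milk, 215 with yield as a continuous term, and, without the 2 alike libraries, 272 by edgeR, 271 by DESeq2 and 232 by limma voom; leaving out 1 library gave 76 to 382. The same count in liver was 595 without a filter, 76 with days in milk, 214 with continuous yield and 650 without low yield replicate 4. Genes without overlap numbered 3148 of 12032 without the 2 alike libraries, where fewer libraries make separation easier. The all-gene median was 0.020 and the shared-gene median 0.026 without them, and -0.014 to 0.020 and -0.019 to 0.0086 with 1 library left out. Over the same omissions the high minus low difference ran from -0.236 to 0.304 kg per day in intake, -286 to 120 in genes with a read, -3.46 to 0.949 percentage points in the share of the top 10 genes, -0.039 to 0.164 in the TMM factor, -112 to 62.0 ppm in liver-type reads and -4.05 to 1.58 percentage points in mammary-type reads, so none of these has a fixed direction. With the cow as a replicate block, 0 genes passed for the interaction and 248 were at an unadjusted p below 0.05. No paired analysis was possible because the hay yield groups share no replicate number.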

Other observations

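Genes that set single hay mammary libraries apart were counted among the 4517 genes at 10 CPM or more. Low yield replicate 4 lay more than 2-fold above all 5 others in 23 genes and below them in 33, the highest total of any library. High yield replicate 5 did so in 27 genes, high yield replicate 3 in 15 and low yield replicate 6 in 13. Low yield replicate 1 and high yield replicate 2 stood alone in only 3 and 1 genes, but together lay above the other 4 libraries in 34 genes and below them in 5. High yield replicate 3 and low yield replicate 6 together lay above the others in 4 genes and below them in 37. No other combination shared more than 8 such genes. The 2 combinations with most shared genes thus each joined a high and a low yield cow.

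On corn stover ENSBTAG00000043564 was highest in mammary replicate 2, at 20.6 CPM against 0.121 to 1.08 CPM in the others. In liver it was highest in replicate 3, at 798 CPM against 0.0693 to 1.18 CPM in the others. On hay the high libraries were those of cows 5 and 6 in both tissues. On corn stover the replicate numbers thus differed between the tissues for this gene, although the labels give each number the same cow measurements, and whether those tissues came from the same cows was not tested.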
